A study of Mus musculus with 8 samples.

Results

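The 10 genes described here encode enzymes and a transporter of chondroitin sulfate synthesis: *Slc26a2*, *Papss1*, *Papss2*, *Ugdh*, *Xylt1*, *Csgalnact1*, *Chsy1*, *Chpf*, *Chst11* and *Chst3*. They were selected by name from the study's annotated gene list and linked through their Ensembl identifiers to the table of raw counts, which holds 43629 genes. Their RNA was compared between the resting and the proliferative zone of the mouse growth plate, which were collected by laser microdissection from the same 4 animals. All mice carried the *Axin2CreERT2* driver and the *R26RTdTomato* reporter, received 3 daily doses of tamoxifen starting on postnatal day 23, and were killed on day 30. Mice 1 and 2 were male and mice 6 and 13 were female. The resting sample of each mouse was taken as TdTomato-positive chondrocytes. It was thus aimed at cells in which the *Axin2* driver had been active, or their descendants, and not at the whole resting zone. The proliferative sample was taken as unlabeled flat cells lying 50 μm or more from the secondary ossification center. There was thus 1 library per zone and mouse, 8 in all, and no wild-type or vehicle-treated animal among them.

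Chondroitin sulfate is the sugar chain that gives cartilage its fixed negative charge, and most of it in the growth plate is carried by aggrecan. Its synthesis needs sulfate, which *Slc26a2* brings into the cell and the PAPS synthases *Papss1* and *Papss2* turn into PAPS, the sulfate donor. It also needs nucleotide sugars, of which UDP-glucuronate is made by *Ugdh*. A chain starts with a xylose added to the core protein by *Xylt1*, is begun by *Csgalnact1* and extended by *Chsy1* with *Chpf*, and is sulfated on carbon 4 by *Chst11* or on carbon 6 by *Chst3*. Loss of the transporter, of *Papss2* or of *Chst11* is known to cause chondrodysplasia.

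The upstream sequences of the tested members with the largest differences, *Papss2* and *Chst11*, are shown with that of *Chsy1*, which differed least among the tested members, because the transcription factors SOX9, SOX5 and SOX6 act on many cartilage genes. Each run is the 250 bases just before an annotated transcription start in RefSeq (build GRCm38.p6), written 5′ to 3′ on the strand of the gene. Capitals mark the letters AACAAT or ACAAAG, the core motifs of SOX factors, on either strand. The windows are chr19:32595465-32595714 and chr19:32619755-32620004 for the start sites of *Papss2*, chr10:82985247-82985496 for *Chst11* and chr7:66109242-66109491 for *Chsy1*, all on the plus strand.
Papss2, upstream start: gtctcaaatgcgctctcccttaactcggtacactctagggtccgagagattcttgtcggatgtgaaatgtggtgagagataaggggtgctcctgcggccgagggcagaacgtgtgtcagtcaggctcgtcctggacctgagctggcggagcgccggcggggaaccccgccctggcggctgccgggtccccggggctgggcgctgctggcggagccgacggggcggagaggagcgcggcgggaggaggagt
Papss2, downstream start: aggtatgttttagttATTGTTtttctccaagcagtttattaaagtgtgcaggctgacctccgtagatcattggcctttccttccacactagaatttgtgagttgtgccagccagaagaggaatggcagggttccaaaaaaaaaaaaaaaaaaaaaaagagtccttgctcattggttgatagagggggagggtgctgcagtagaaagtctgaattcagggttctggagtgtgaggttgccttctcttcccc
Chst11: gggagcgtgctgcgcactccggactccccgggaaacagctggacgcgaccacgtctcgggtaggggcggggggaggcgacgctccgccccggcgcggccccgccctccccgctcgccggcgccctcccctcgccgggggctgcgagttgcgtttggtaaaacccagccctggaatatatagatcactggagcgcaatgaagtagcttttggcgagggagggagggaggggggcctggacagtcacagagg
Chsy1: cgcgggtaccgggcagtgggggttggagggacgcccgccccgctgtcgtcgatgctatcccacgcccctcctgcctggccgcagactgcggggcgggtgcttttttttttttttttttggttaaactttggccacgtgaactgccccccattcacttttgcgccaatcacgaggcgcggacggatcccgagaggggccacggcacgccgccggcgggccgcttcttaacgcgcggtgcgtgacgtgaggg
Of the printed windows, only that of the downstream *Papss2* start held the letters, beginning 235 bases before the start. The table of promoters listed 7 of the 10 members with 9 start sites in all. *Slc26a2*, *Csgalnact1* and *Xylt1* were not matched. The letters occurred in 2 of these 9 windows, the other being that of *Chst3*, 172 bases before its start, and in 24.0% of all 32851 windows of the same length. The upstream *Papss2* window had 67.6% G and C, that of *Chst11* 70.0% and that of *Chsy1* 65.6%, against 43.2% at the downstream *Papss2* start. The median over all windows was 52.4%. The counts do not tell which start was used.

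The libraries held few counts. Totals ranged from 192882 to 462044 in the resting zone and from 249284 to 631474 in the proliferative zone, so that 3 counts corresponded to between 5.79 and 14.5 CPM in the former and between 4.90 and 12.7 CPM in the latter. Here CPM, counts-per-million, is the count of a gene relative to the total of its library after scaling with edgeR's TMM factors. In several pairs of genes on opposite strands, the counts fell mainly on the partner of the gene known to be strongly transcribed, while in others, such as *Epyc* with 1497 counts and *Gm10754* with 243, they did not. *mt-Nd6*, the single protein-coding gene of its mitochondrial strand, had 137491 counts in all, while the 12 protein-coding genes of the other strand together had 37887. *Tcfl5* had 64349 counts and the cartilage collagen gene *Col9a3* opposite to it 1756, and *Tsix* had 18698 and *Xist* 1368. The library kit is one that marks the strand, and the strand setting of the counting was not given in the sources used here. Counts of a member may therefore be the minor part of the reads from that gene. The share of the 12 mitochondrial genes in their counts with *mt-Nd6* overlapped between the zones. It was 18.3% to 19.8% in the resting and 17.1% to 30.6% in the proliferative libraries. For *Col9a3*, a pair chosen after its values were seen, the minor share was not the same in both zones. *Col9a3* had from 4.46% to 12.9% of the counts of its pair in the resting libraries and from 1.46% to 2.81% in the proliferative libraries. The log2 fold change, resting over proliferative, was -1.31 on *Col9a3* and -3.57 on *Tcfl5*. How far this touches the fold changes of the members was not tested. Of the 10 members, only *Chsy1* had exons overlapping a gene of the opposite strand, *Gm26827*, which had 8, 3, 8 and 8 counts in the proliferative libraries of mice 1, 2, 6 and 13 and 0 in every resting library.

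The captures also differed in markers of other cell types. Summed over 14 chondrocyte markers, such as *Col2a1*, *Acan* and *Sox9*, the level was from 7492 to 19082 CPM in the resting libraries and from 36120 to 61886 CPM in the proliferative libraries, and all 14 had counts in every library. Summed osteoblast markers (8 genes, led by *Col1a1*) ranged from 8372 to 35798 CPM in the resting zone and from 632 to 3956 CPM in the proliferative zone. Osteoclast markers ranged from 1466 to 4487 CPM against 14.7 to 455 CPM, neutrophil markers from 3010 to 3841 CPM against 0 to 565 CPM, and erythroid markers from 1829 to 11744 CPM against 0 to 1757 CPM, for 8 genes each. Macrophage markers ranged from 928 to 1056 CPM against 198 to 495 CPM and endothelial markers from 218 to 361 CPM against 81.7 to 115 CPM. Hypertrophic markers overlapped as a sum of 8 genes, with 742 to 1994 CPM and 1268 to 1920 CPM, but moved apart one from another. *Col10a1* (log2 fold change -4.28, adjusted p = 0.00139, edgeR) and *Panx3* (-4.78, adjusted p = 5.00e-05, edgeR) were called higher in the proliferative zone, and *Ihh* had 15, 16, 6 and 2 counts there (mice 1, 2, 6 and 13) and 0 in every resting library. *Mmp13*, which bone cells also express, was called higher in the resting zone (4.66, adjusted p = 0.00109, edgeR). The part of hypertrophic or prehypertrophic cells in the differences of the members was not tested. In the proliferative libraries the macrophage sum came mostly from *Csf1r*, with 312 of 317 CPM in mouse 6, and the endothelial sum from *Egfl7*, with all 81.7 CPM in mouse 6. *Egfl7* had 44, 50, 53 and 17 counts in the resting and 47, 64, 50 and 24 in the proliferative libraries. The osteoblast gene *Sp7* went against its list, with 3, 3, 11 and 4 counts in the resting and 23, 17, 19 and 12 in the proliferative libraries. *Sost*, *Ocstamp* and *Pecam1* had no counts in any proliferative library. In such bulk samples, fewer chondrocytes in a capture and less RNA of a gene per chondrocyte cannot be told apart.

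The PAPS synthase *Papss2*, the sulfotransferase *Chst11*, the sulfate transporter *Slc26a2* and the dehydrogenase *Ugdh* were higher in the proliferative zone. In edgeR's quasi-likelihood test over 3793 genes that passed a filter on low counts, 4 of the 7 members that passed it were called higher in the proliferative zone (thresholds of 0.01 on the adjusted p and an absolute log2 fold change above 1). With the mouse as a replicate block, 5 were called, *Csgalnact1* being added (adjusted p = 0.00585, edgeR). Without the block, the same call was made for 6.93% of all genes tested. None of the 7 was called higher in the resting zone, where 11.0% of all genes were, and none had an unadjusted p below 0.05 in that direction. DESeq2 called none there either. For 5 of the 7, the 4 called genes and *Csgalnact1*, every proliferative library exceeded every resting library, which held for 16.4% of all genes. *Csgalnact1*, with 4, 4, 42 and 8 resting counts (mice 1, 2, 6 and 13), passed the filter mainly through the proliferative libraries. So did *Papss1*, with 3, 0, 9 and 6. Little is to be read from their part in this count or in the median of the 7. The median log2 fold change, resting over proliferative, was -1.77 over the 7 and 0.08 over all genes tested. The former describes the members that passed the filter and not all 10. *Chst3*, *Chpf* and *Xylt1* had too few counts for the filter and were fitted among the 17492 genes with at least 1 count.

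**Figure D1:**
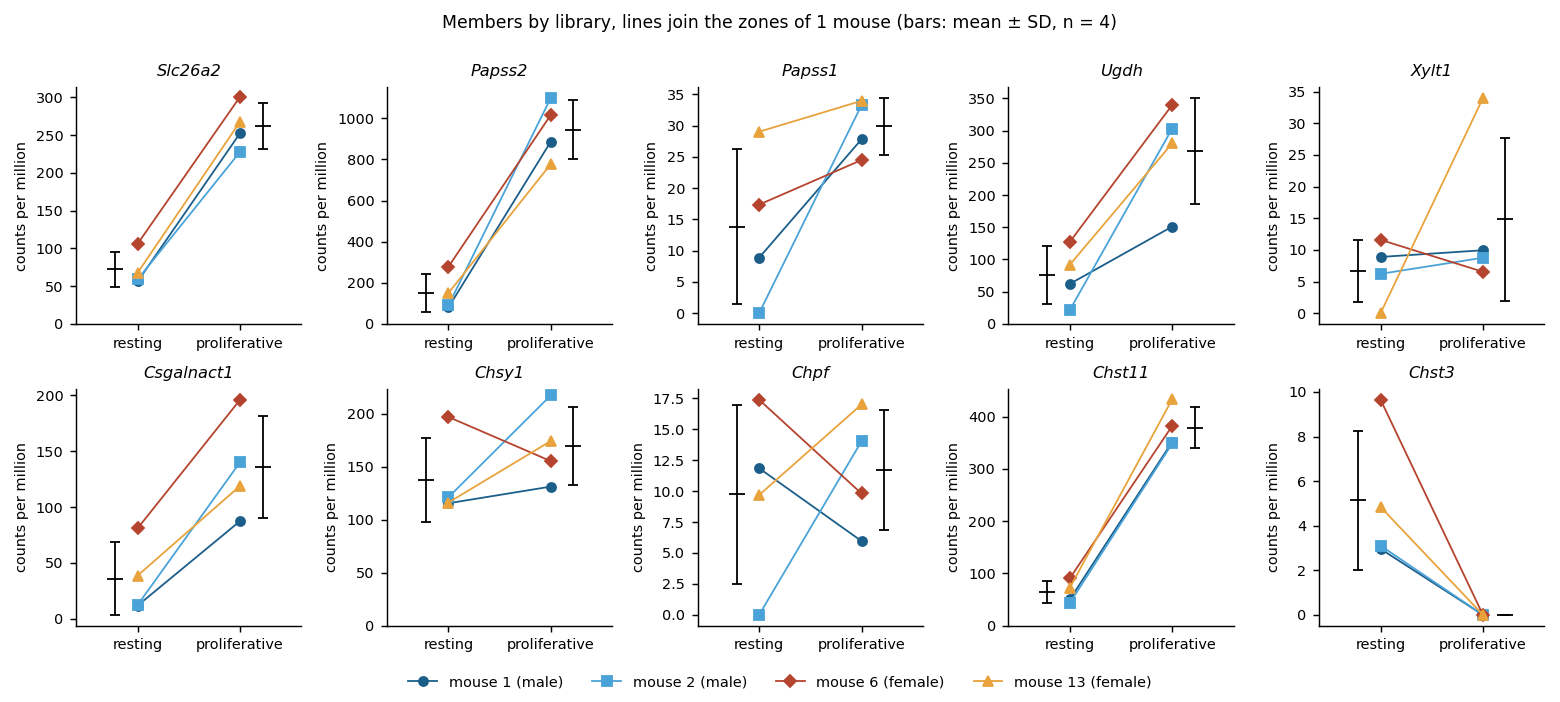
TMM-scaled CPM of the 10 members in the resting and proliferative library of each mouse, on linear axes. Lines join the zones of 1 mouse and bars give the mean ± SD (n = 4 per zone). *Slc26a2*, *Papss2*, *Ugdh*, *Csgalnact1* and *Chst11* rise in every mouse with no overlap of the zones, while the lines of *Chsy1* and *Chpf* cross.

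*Papss2* (ENSMUSG00000024899, GRCm38, chr19:32595790-32667187, plus strand), the PAPS synthase that predominates in cartilage, showed the largest difference among the 7 members that passed the filter. Its resting libraries had 79.9, 90.0, 278 and 150 CPM (mice 1, 2, 6 and 13, in this order here and below), and its proliferative libraries had 887, 1099, 1016 and 777 CPM. The lowest proliferative library was above the highest resting library, and mouse 6 stood highest within the resting zone. The means were 149 ± 91.1 and 945 ± 142 CPM (SD, n = 4 each), a 5.95-fold higher level in the proliferative zone and a log2 fold change of -2.57 (standard error, SE, 0.37, adjusted p = 0.000394, edgeR). The within-mouse log2 ratios were -3.45, -3.59, -1.87 and -2.37. *Papss1* (ENSMUSG00000028032, chr3:131564768-131643671, plus strand), the widely expressed synthase, had 8.88, 0, 17.4 and 29.0 CPM in resting and 27.8, 33.3, 24.5 and 34.0 CPM in proliferative libraries. It was lower in the resting library of every mouse, but the zones overlapped, and these values rest on at most 19 counts per library. Its log2 fold change was -1.09 (95% confidence interval -2.45 to 0.27, adjusted p = 0.219, edgeR).

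Of the counts on both synthases, *Papss2* made up 90.0% (27 of 30 counts, 95% Wilson interval 74.4% to 96.5%), 100% (29 of 29, 88.3% to 100%), 94.1% (144 of 153, 89.2% to 96.9%) and 83.8% (31 of 37, 68.9% to 92.3%) in the resting libraries. In the proliferative libraries it made up from 95.8% to 97.6%. *Papss2* thus held the larger part of the synthase counts in all 8 libraries, on gene models of 3721 and 3053 exonic bases. The log2 ratio of *Papss2* to *Papss1* differed by -1.16 between the zones, and the values overlapped (p = 0.229, exact two-sided permutation test over libraries, adjusted p = 0.429 over 20 ratios). A difference between both genes in their response to zone was not detectable at this depth.

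*Slc26a2* (ENSMUSG00000034320, chr18:61192919-61211612, minus strand), the sulfate transporter, had 56.2, 58.996, 106 and 67.8 CPM in resting and 252, 228, 301 and 268 CPM in proliferative libraries. The zones did not overlap, and mouse 6 was the highest in both. The means were 72.3 ± 23.1 and 262 ± 30.5 CPM (SD, n = 4 each), 3.40-fold higher in the proliferative zone, with a log2 fold change of -1.77 (SE 0.29, adjusted p = 0.000729, edgeR). Around these members, *Impad1*, a phosphatase that clears the nucleotide left after sulfate transfer, was called with a log2 fold change of -1.71 (84.9 ± 43.4 against 283 ± 55.1 CPM, SD, n = 4 each, adjusted p = 0.00262, edgeR). *Slc35b2*, which carries PAPS into the Golgi, did not pass the test at 8.62 ± 6.41 and 33.7 ± 4.00 CPM (log2 fold change -1.71, adjusted p = 0.0229, edgeR). Of 8 genes of sulfate supply, members included, 5 passed the filter and 3 (all genes: 6.93%) were called higher in the proliferative zone.

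*Ugdh* (ENSMUSG00000029201, chr5:65413221-65435949, minus strand), which oxidizes UDP-glucose to UDP-glucuronate, had 62.2, 21.7, 127 and 92.0 CPM in resting and 151, 303, 340 and 280 CPM in proliferative libraries. The zones did not overlap, although the lowest proliferative value, of mouse 1, was close to the highest resting value, of mouse 6. With means of 75.8 ± 44.8 and 269 ± 82.1 CPM (SD, n = 4 each), the log2 fold change was -1.74 (SE 0.44, adjusted p = 0.00946, edgeR). This call lay near the threshold. It was lost when any library other than the proliferative library of mouse 1 or the resting library of mouse 6 was left out, with adjusted p values from 0.0115 to 0.0284, and with library totals as the only scaling (0.0200).

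Of 12 genes of UDP-sugar supply, *Ugdh* included, 9 passed the filter, and 3 were called higher in the proliferative zone (6.93% of all genes) and 0 higher in the resting zone (11.0%). *Uxs1* and *Slc35d1* passed the filter through the proliferative libraries. *Uxs1*, which converts UDP-glucuronate to the UDP-xylose of the linkage region, had 8.88, 9.32, 19.3 and 38.7 CPM against 95.4, 59.6, 127 and 76.5 CPM (log2 fold change -2.25, adjusted p = 0.00417, edgeR). *Slc35d1*, the Golgi transporter of UDP-sugars whose loss is known to cause a severe chondrodysplasia, had 5.92, 3.11, 23.2 and 4.84 CPM against 67.6, 47.3, 88.2 and 63.7 CPM (log2 fold change -2.56, adjusted p = 0.00417, edgeR). For both genes the lowest proliferative library was above the highest resting library. *Gfpt1*, at the entry of hexosamine synthesis, and *Pgm3*, further along it, did not pass, with log2 fold changes of -1.16 (adjusted p = 0.0945) and 0.66 (adjusted p = 0.214, edgeR). *Pgm3* shares exonic sequence with *Dop1a* on the opposite strand, which had 2254 counts.

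*Xylt1* (ENSMUSG00000030657, chr7:117380979-117673580, plus strand), the xylosyltransferase that starts the chain, had 3, 2, 6 and 0 counts in resting and 5, 5, 4 and 8 in proliferative libraries. The zones overlapped, and the proliferative library of mouse 13 stood apart at 34.0 CPM while the other 3 lay between 6.54 and 9.94 CPM. Its log2 fold change of -0.98 had a 95% confidence interval from -2.73 to 0.78 (adjusted p = 0.515, edgeR over all genes with a count). No difference was detectable at this depth. Of 7 genes of the linkage region, 2 passed the filter. *Fam20b*, the kinase that phosphorylates the linkage xylose, was called higher in the proliferative zone, with 8.88, 9.32, 13.5 and 0 CPM against 87.5, 82.4, 108 and 102 CPM (log2 fold change -3.30, adjusted p = 0.000485, edgeR). It shares 400 exonic bases with *Gm19918* on the opposite strand, which had 11648 counts. *B4galt7*, the galactosyltransferase that follows, had 39.4 ± 24.1 and 30.4 ± 10.6 CPM (SD, n = 4 each, adjusted p = 0.643, edgeR).

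*Csgalnact1* (ENSMUSG00000036356, chr8:68356781-68735146, minus strand), which adds the first N-acetylgalactosamine, had 11.8, 12.4, 81.1 and 38.7 CPM in resting and 87.5, 140, 196 and 119 CPM in proliferative libraries. Every proliferative value was above every resting value, but the resting library of mouse 6, at 81.1 CPM, came near the lowest proliferative value. With means of 36.0 ± 32.5 and 136 ± 45.7 CPM (SD, n = 4 each), the log2 fold change was -1.78 (SE 0.54, adjusted p = 0.0241, edgeR) and did not pass the threshold. With the mouse as a replicate block it was -2.08 and passed (adjusted p = 0.00585). Without the resting library of mouse 6 it was -2.76 (adjusted p = 0.00151).

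*Chsy1* (ENSMUSG00000032640, chr7:66109515-66173798, plus strand), the synthase that extends the chain, had 115, 121, 197 and 116 CPM in resting and 131, 217, 155 and 174 CPM in proliferative libraries. The zones overlapped, and mouse 6 went the other way from the other 3 mice. The means were 137 ± 39.7 and 169 ± 36.4 CPM (SD, n = 4 each), and the log2 fold change was -0.22 with a 95% confidence interval from -0.84 to 0.40 (adjusted p = 0.607, edgeR). This interval excludes a decrease in the resting zone of the size fitted for *Papss2*, *Chst11*, *Slc26a2*, *Ugdh* or *Csgalnact1*. *Chpf* (ENSMUSG00000032997, chr1:75474569-75479307, minus strand), the partner of *Chsy1* in polymerization, had 4, 0, 9 and 2 counts against 3, 8, 6 and 4, with overlapping zones. Its log2 fold change of -0.30 (95% confidence interval -1.997 to 1.40, adjusted p = 0.865, edgeR over all genes with a count) had no stable sign and was 0.07 without the resting library of mouse 2. *Chpf2*, a related factor, had 47.4 ± 29.1 and 84.3 ± 61.95 CPM (SD, n = 4 each, adjusted p = 0.347, edgeR), and overlaps *Smarcd3*, which had 1228 counts. None of the 3 tested genes of polymerization among 6 listed was called.

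The ratio of each member to *Chsy1* within a library does not depend on the scaling of libraries. Since *Chsy1* differed least between the zones, these ratios mostly restate the difference of the other member and are no separate evidence. The log2 ratio of *Chst11* to *Chsy1* was -1.17, -1.45, -1.11 and -0.66 in resting and 1.42, 0.68, 1.30 and 1.30 in proliferative libraries. The zones did not overlap, and the mean difference was -2.27. For *Papss2* the difference in this ratio was -2.50, for *Csgalnact1* -1.91, for *Ugdh* -1.68 and for *Slc26a2* -1.56. In each case the zones did not overlap (p = 0.0286, the smallest that the exact two-sided permutation test of 4 against 4 libraries can give, adjusted p = 0.0714 over 20 ratios). With 8 of the 20 ratios at this smallest p, the adjusted value could not be lower, so that missing 0.05 carries no information.

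*Chst11* (ENSMUSG00000034612, chr10:82985498-83195900, plus strand), the chondroitin 4-O-sulfotransferase, had 50.3, 43.5, 90.7 and 72.6 CPM in resting and 352, 349, 382 and 433 CPM in proliferative libraries. The proliferative values lay close together and far above all resting values. The means were 64.3 ± 21.6 and 379 ± 39.2 CPM (SD, n = 4 each), 5.55-fold higher in the proliferative zone, with a log2 fold change of -2.47 (SE 0.29) and the lowest adjusted p among the members (0.000136, edgeR). The within-mouse log2 ratios were -2.78, -2.98, -2.06 and -2.56.

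*Chst3* (ENSMUSG00000057337, chr10:60181532-60219260, minus strand), the chondroitin 6-O-sulfotransferase, was the member with counts in the resting zone alone. It had 1, 1, 5 and 1 counts in the resting libraries and 0 in each of the 4 proliferative libraries, where 3 counts would be between 4.90 and 12.7 CPM. The resting mean was 5.14 ± 3.13 CPM (SD, n = 4), which is of the size of that limit, and the gene did not pass the test (unadjusted p = 0.0138, adjusted p = 0.0945, edgeR over all genes with a count), so no fold is given. Among the counts on the 4-O-sulfotransferases *Chst11*, *Chst12* and *Chst13* and the 6-O-sulfotransferases *Chst3* and *Chst7*, those on the 6-O enzymes were 2 of 23, 1 of 19, 6 of 74 and 1 of 21 in the resting libraries. This is 8.70% (95% Wilson interval 2.42% to 26.8%), 5.26% (0.935% to 24.6%), 8.11% (3.77% to 16.6%) and 4.76% (0.846% to 22.7%). In the proliferative libraries they were 0 of 190, 223, 258 and 109, which allows shares of up to 1.58%, 1.35%, 1.16% and 2.75% when the limit is set at 3 counts, and of up to 1.98%, 1.69%, 1.47% and 3.40% by the upper bound of the Wilson interval. The 6-O enzymes were thus seen only in resting libraries, on 10 counts in all. The markers of bone and blood cells given above were higher in the same libraries, and their part in the *Chst3* counts was not tested.

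Of 7 genes of chain sulfation, 3 passed the filter and *Chst11* alone was called. *Chst12*, also a 4-O-sulfotransferase, had 22.2 ± 13.5 and 34.2 ± 7.67 CPM (SD, n = 4 each), with a log2 fold change of -0.51 (adjusted p = 0.452, edgeR). *Chst15*, which adds a second sulfate to 4-sulfated units, had 37.3 ± 26.8 and 64.4 ± 10.6 CPM with a log2 fold change of -0.64 (adjusted p = 0.434, edgeR). *Chst13* had no count in any library. The epimerases of dermatan sulfate, *Dse* and *Dsel*, which convert glucuronate of the same chain to iduronate, did not pass, with log2 fold changes of -0.68 (adjusted p = 0.534) and -0.09 (adjusted p = 0.930, edgeR).

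**Figure D2:**
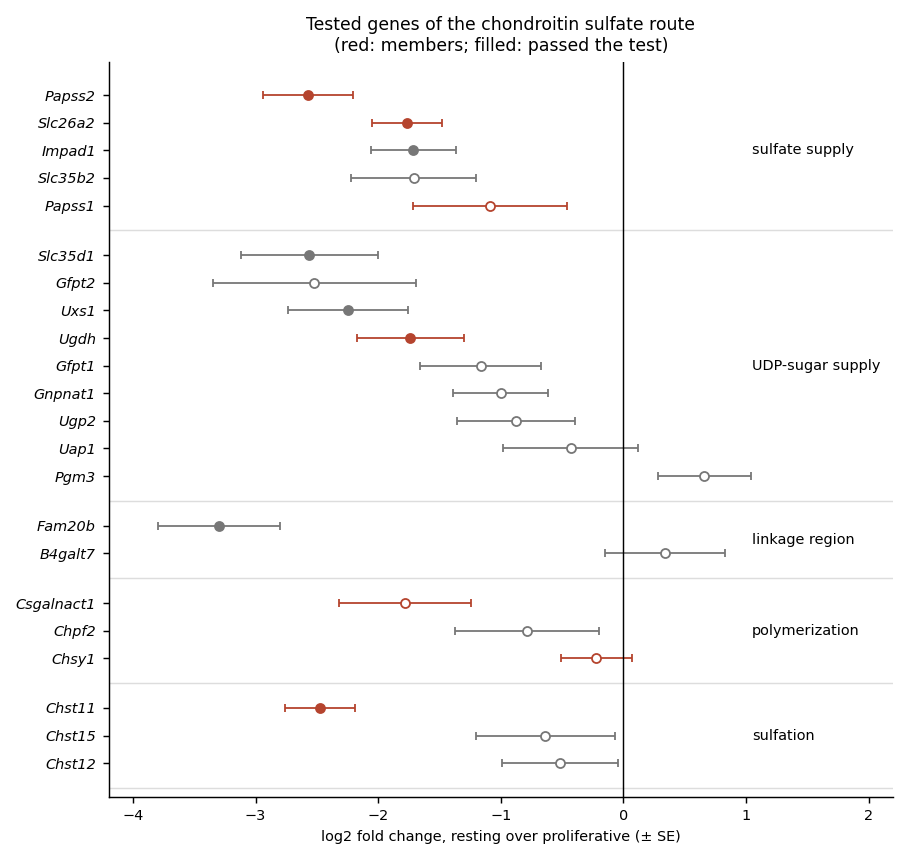
Log2 fold change, resting over proliferative, with its standard error for the tested genes of 5 lists of the route, ordered by role (the 2 tested epimerases of dermatan sulfate are not drawn). Members are red, other genes grey, and filled points passed edgeR's test. Called genes lie between -3.30 (*Fam20b*) and -1.71 (*Impad1*), and *Chsy1*, *Uap1* and *B4galt7* lie within 1 standard error of 0.

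Outside the members, the route lists with the dermatan enzymes held 33 genes, of which 32 had a count and 17 passed the filter. Of these, 4 were called higher in the proliferative zone (*Impad1*, *Slc35d1*, *Uxs1* and *Fam20b*), against 6.93% of all genes. *Slc35d1*, *Uxs1* and *Fam20b* had 12 counts or fewer in each resting library and passed the filter through the proliferative libraries, so little is to be read from this count. With at least 10 counts in every library 1 was called. Only 1 of the other route genes was called without the resting library of mouse 1, without mouse 1 or without mouse 2, and 2 without the resting library of mouse 2 or the proliferative library of mouse 6. In the full set, none was called higher in the resting zone by edgeR or DESeq2, and 0 had an unadjusted p below 0.05 in that direction. Their median log2 fold change was -0.88. For the same reason, this median describes the genes that passed and not the route. *Slc35d2*, a related transporter outside the filter, was named after its values were seen. It had 6, 1, 9 and 0 counts in the resting and 1, 0, 0 and 0 in the proliferative libraries (unadjusted p = 0.00969, adjusted p = 0.0738, edgeR over all genes with a count). Genes of other glycosaminoglycans gave other values. Of 22 heparan sulfate genes only 3 passed the filter, none was called, and their median was 0.64. *Ext1*, a polymerase of heparan sulfate, had 92.7 ± 40.4 CPM in resting and 40.3 ± 22.5 CPM in proliferative libraries (SD, n = 4 each, log2 fold change 1.34, adjusted p = 0.0439, edgeR), and the sulfatase *Sulf2* had a log2 fold change of 0.64 (adjusted p = 0.106, edgeR). The third, the sulfotransferase *Hs3st3b1*, lay in the other direction with -1.61 (adjusted p = 0.222, edgeR). The 1 tested keratan sulfate gene of 7, *B4galt1*, had 0.74 (adjusted p = 0.138, edgeR). Of 8 hyaluronan genes, 4 were tested. The synthase *Has2* was called higher in the proliferative zone (log2 fold change -2.43, adjusted p = 0.00230, edgeR) and the receptor *Cd44*, which leukocytes and osteoclasts also express, higher in the resting zone (4.75, adjusted p = 0.000309, edgeR). *Has2* had 4, 3, 22 and 5 counts in the resting libraries. *Cd44* had 9, 1, 1 and 1 in the proliferative libraries and passed the filter through the resting ones. *Cemip2* (0.97) and *Has3* (0.32) did not pass.

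The calls among genes that break the chain down lay in the opposite direction, on genes that passed the filter through the resting libraries. Of 9 genes of chain degradation, 5 were tested, of which 2 were called higher in the resting libraries (11.0% of all genes) and 0 lower (6.93%). Both called genes had 8 counts or fewer in each proliferative library, so little is to be read from this count. *Arsb*, the sulfatase that removes the 4-sulfate, had 67.0 ± 30.4 CPM in resting and 9.57 ± 2.36 CPM in proliferative libraries (SD, n = 4 each, log2 fold change 2.79, adjusted p = 0.00118, edgeR). *Hexa*, a subunit of hexosaminidase, had 61.9 ± 17.2 and 11.4 ± 12.4 CPM (log2 fold change 2.75, adjusted p = 0.00459, edgeR). Osteoclast and macrophage markers, whose cells are rich in lysosomes, were higher in the same libraries, and their part was not tested. *Arsb* also overlaps *Gm26527* on the opposite strand, which had 13967 counts and a log2 fold change of 2.32. *Idua*, which removes iduronate, had a log2 fold change of -0.19 (adjusted p = 0.699, edgeR) and overlaps *Dgkq* and *Slc26a1*, which had 673 counts.

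Among 10 core proteins that carry the chain, 8 were tested. Of these, 3 were called higher in the proliferative zone (all genes: 6.93%) and 2 higher in the resting zone (11.0%). *Vcan* (-3.13, adjusted p = 0.00266), *Epyc* (-3.38, adjusted p = 0.000581) and *Col9a2* (-1.62, adjusted p = 0.00947) were called higher in the proliferative zone by edgeR. *Dcn* (3.04, adjusted p = 8.70e-05) and *Srgn* (6.65, adjusted p = 0.000173), the core proteins of fibrous matrix and of blood cell granules, were called higher in the resting zone. *Vcan* had 3, 0, 1 and 1 counts in the resting libraries and passed the filter through the proliferative ones. *Srgn* had 3, 0, 0 and 0 counts in the proliferative libraries and passed it through the resting ones. Little is thus to be read from how many were called. *Acan*, the main carrier in cartilage, had 405 ± 402 and 1616 ± 240 CPM (SD, n = 4 each) and missed the threshold with a log2 fold change of -1.91 (adjusted p = 0.0109, edgeR), as did *Bgn* with -0.83 (adjusted p = 0.0109). With the mouse as a replicate block, *Acan* passed (adjusted p = 0.00287, edgeR) and *Vcan* did not (adjusted p = 0.0107, edgeR). *Sulf2*, *Has2* and *Epyc* overlap *Ncoa3*, *Has2os* and *Gm10754* on the opposite strand, with 327, 11 and 243 counts.

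Set against the chondrocyte markers of each library, most of the differences were no longer separated. The markers themselves differed by zone. Of 13 tested, 7 were called higher in the proliferative zone (all genes: 6.93%), and their median log2 fold change was -1.62. The study reported *Col2a1* as lower in resting chondrocytes, also by in situ hybridization. The marker sum is thus no measure of chondrocyte content alone, and ratios to it cannot tell content from RNA per cell. The 10 members summed to 409, 357, 936 and 581 CPM in the resting zone and to 1904, 2392, 2431 and 2137 CPM in the proliferative zone. As a percentage of the counts on the 14 chondrocyte markers, the same members gave 5.41, 4.77, 4.91 and 5.65% in the resting zone and 5.27, 3.86, 6.22 and 4.96% in the proliferative zone. The sums were fully separated and the percentages overlapped. Member by member, the log2 ratio to the marker sum differed between the zones by 0.23 for *Slc26a2* (p = 0.514), -0.48 for *Chst11* (p = 0.114), 0.11 for *Ugdh* (p = 0.829), -0.12 for *Csgalnact1* (p = 0.829) and 0.45 for *Papss1* (p = 0.629), all by the exact two-sided permutation test and with overlapping zones. The ratio of *Papss2* did not overlap, at -6.54, -6.35, -6.10 and -6.08 in the resting and -5.35, -5.81, -5.26 and -5.79 in the proliferative zone. The difference was -0.71 (p = 0.0286, exact permutation test, adjusted p = 0.0714 over 20 ratios). The ratio of *Chsy1* differed in the other direction and was higher in all 4 resting libraries by 1.79 (p = 0.0286, exact permutation test, adjusted p = 0.0714). With *Acan* in place of the marker sum, the ratio of *Chsy1* was again higher in the resting zone without overlap, by 2.09 (p = 0.0286, exact permutation test, adjusted p = 0.0714). The differences of the other 6 tested members lay between -0.41 and 0.75 with overlapping zones. The CPM of *Chsy1* differed little between the zones (log2 fold change -0.22). Both of its ratios thus mostly restate the lower marker sum and *Acan* in the resting zone and are no separate evidence. The part of bone and blood cells in the *Chsy1* counts was not tested.

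**Figure D3:**
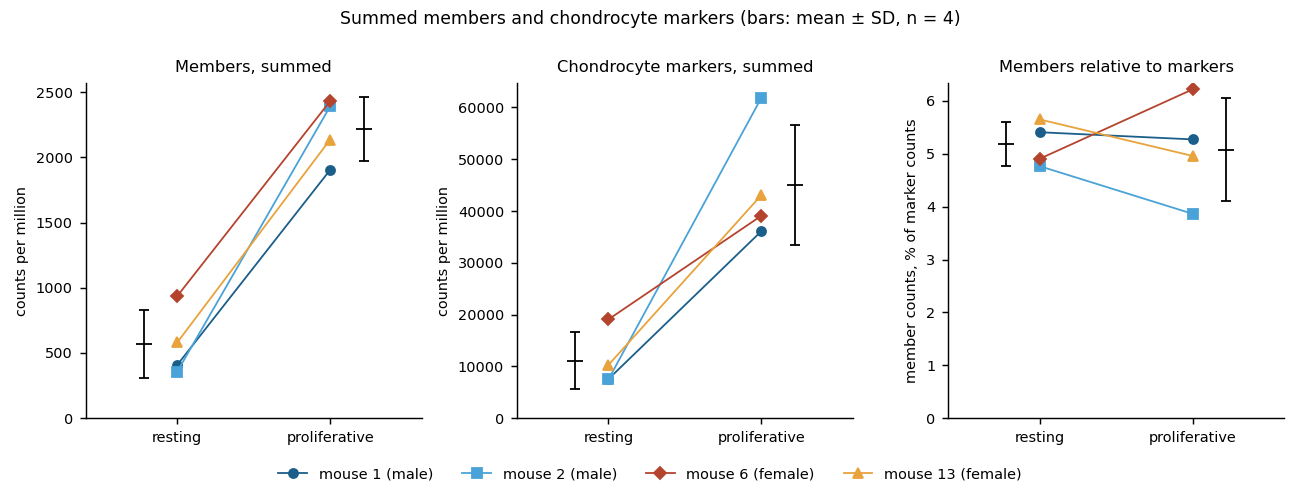
Summed CPM of the 10 members (left) and of 14 chondrocyte markers (middle), and member counts as a percentage of marker counts (right), by zone, with lines joining the libraries of 1 mouse and bars giving the mean ± SD (n = 4 per zone). The left and middle panels are separated between the zones, and the right panel overlaps, from 3.86% to 6.22%.

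The zone difference was also compared between the sexes, with 2 mice each. None of the 7 tested members passed the interaction test (adjusted p from edgeR below 0.01), and 2 had an unadjusted p below 0.05. For *Papss2* the log2 fold change of males minus that of females was -1.50, a larger excess of the proliferative zone in males (unadjusted p = 0.0145, adjusted p = 0.723, edgeR). For *Csgalnact1* it was -1.86 (unadjusted p = 0.0433, adjusted p = 0.728, edgeR). Over all 3793 genes, 0 passed and 250 had an unadjusted p below 0.05. With the mouse as a replicate block, 1 member (*Papss2*, unadjusted p = 0.0180) and 190 genes had an unadjusted p below 0.05, that of *Csgalnact1* was 0.0553, and 0 genes passed (edgeR).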

How the data were processed

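RNA from laser-microdissected growth plate chondrocytes was amplified by 2 rounds of in vitro transcription before library preparation with a kit that marks the strand, so counts are not molecules. The authors aligned the reads to GRCm38 with HISAT2 2.1.0 and summarized them per gene with HTSeq 0.11.2, and the deposited values used here are these raw counts. The strand setting was not given in the sources used here. The labels name tibiae as the tissue, whereas the methods of the study name growth plates of both femur and tibia. The authors' table of their own comparison was read for gene names only, and its 8 per-sample columns and its fold changes and p-values were not used.

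Genes were filtered with filterByExpr (minimum count 10, minimum total 15) and tested with edgeR 4.0.16 (TMM, quasi-likelihood F test, zone as the only term) in R 4.3.3, with Benjamini-Hochberg adjustment over all genes tested. Members outside the filter were fitted together with every gene that had a count. Exact permutation tests compared 4 with 4 libraries on log2 ratios of counts with 0.5 added. They exchanged libraries freely between the zones and did not use the pairing by mouse. Within-mouse log2 ratios used CPM with 1 added. Intervals of shares were computed with scipy 1.17.1 and cover counting error only. The labels give both zones of a mouse the same number, which is the source of the pairing. Deviations of libraries from 1 mouse correlated by 0.18, 0.01, 0.14 and 0.06. The mean correlations with libraries of other mice were -0.07, -0.01, -0.04 and -0.02, lower for each mouse. Alternatives were a likelihood ratio test, DESeq2 1.42.0, other scaling factors and filters, a threshold of 0.05, the replicate block and leaving out libraries or mice. The tests were run first on simulated data. Coordinates and overlaps are those of GENCODE M21.

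The members and gene lists were chosen with earlier results of these data known, and the ratios to the chondrocyte markers and the shares of counts were chosen after seeing the data. Named genes are all members, all list genes that were called, and per list the 2 tested genes with the highest mean CPM that were not, except for a gene that is not reported here. The mice are separate animals, 1 library per zone each.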

Additional observations from a re-analysis of the deposited data

Results flagged for a closer look

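The spread within each zone was examined for all 10 members, 20 groups of 4 libraries, and 2 groups held a library far from the other 3. Chance gives about 1 in 20 such groups. In the resting zone, *Chsy1* was at 196.9 CPM in mouse 6 and between 115 and 121 CPM in the other 3 mice. The same library had the highest resting level of *Papss2*, *Slc26a2*, *Chst11*, *Csgalnact1* and *Ugdh*, and the highest sum of chondrocyte markers (19082 CPM). In the proliferative zone, *Xylt1* was at 34.0 CPM in mouse 13, on 8 counts, and between 6.54 and 9.94 CPM in the other 3. This was the proliferative library with the lowest total.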

How the results depend on the processing

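*Papss2*, *Chst11* and *Slc26a2* were called higher in the proliferative zone under every alternative run, *Ugdh* and *Csgalnact1* under some, and 3 to 5 members were called in all. With library totals alone, the median log2 fold change of all genes was 0.27 and 72.7% of calls were higher in the resting zone, against 0.08 and 61.4%. With the mouse as a replicate block, the calls over all genes numbered 384 (higher in resting libraries) and 230 (higher in proliferative libraries), with 5 members, *Csgalnact1* being the one gained. Beside *Csgalnact1*, *Acan*, *Vcan* and *Col9a3*, the block changed no call of a named gene. Without it, they numbered 419 and 263. These numbers were 829 and 468 among all genes with at least 1 count, 140 and 133 with at least 10 counts in every library (1483 genes tested), and 635 and 426 at an adjusted p below 0.05. Leaving out 1 library or 1 mouse gave 192 to 472 and 112 to 349. Among the other route genes, 1 was called higher in the proliferative zone with at least 10 counts in every library, and 1 to 5 when a library or mouse was left out. With the likelihood ratio test, among all genes with at least 1 count and at an adjusted p below 0.05, 6 were called in each case. *Ugdh* and *Csgalnact1* were not testable at 10 counts in every library. The log2 fold change of *Chpf* turned to 0.031 with library totals alone and to 0.074 and 0.26 without the resting library of mouse 2 or without mouse 2, and lay between -0.92 and 0.26 over all omissions. The cause was not tested. At these depths a change of *Xylt1*, *Chpf*, *Chst3* or *Papss1* could not be resolved, and the strand setting of the counting limits every level given.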

Other observations

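*Smpd3*, a sphingomyelinase gene expressed in cartilage, and *Prmt7* on the opposite strand form a pair with unequal counts. They had 878 and 46567 counts in all, and log2 fold changes of -2.94 and -4.40. *Smpd3* held from 1.95% to 5.67% of the counts of the pair in the resting libraries and from 1.25% to 2.01% in the proliferative libraries. This pair and that of *Col9a3* and *Tcfl5* were chosen after their values were seen.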
